A study of Homo sapiens with 6 samples.

Results

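The forkhead (FOX) transcription factor genes were examined for CpG methylation in H9, a line of human embryonic stem cells, cultured in a conventional or a reset state. Members were the 37 protein-coding FOX genes on autosomes given by symbol in GENCODE release 44 for GRCh37, out of 19819 protein-coding genes on chromosomes 1 to 22 and X. They were divided into 29 genes with mostly developmental, tissue-restricted roles and 8 broadly expressed genes (FOXJ2, FOXJ3, FOXK1, FOXK2, FOXN2, FOXN3, FOXO1 and FOXO3). The developmental list also held FOXM1, a regulator of cell division, and FOXP1 and FOXP4, which many tissues use.

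Forkhead proteins share a winged-helix DNA-binding domain, and several of them can open compact chromatin ahead of other factors. Developmental members direct cell fates after pluripotency is left, such as endoderm (FOXA), neural crest (FOXD3) and mesoderm derivatives (FOXC and FOXF), whereas FOXO and FOXK members answer to insulin and growth factor signalling in most cells. Genes of developmental regulators usually carry long CpG islands (CGIs), stretches rich in CG dinucleotides that stay unmethylated in most cells, while the bodies of transcribed genes are usually heavily methylated.

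Whole-genome bisulfite sequencing had been performed on 3 Conventional and 3 Reset libraries, all of the single line H9. Conventional cells were maintained in FGF and knockout serum replacement (FGF/KSR). Reset cells were H9 derivatives that carried doxycycline-inducible NANOG and KLF2 transgenes and had been moved to t2iL+Gö. This medium holds a lowered dose of a GSK3 inhibitor (CHIR99021), a MEK inhibitor (PD0325901), LIF, and Gö6983, which blocks protein kinase C. The study states that doxycycline was withdrawn at this move and that no transgene product was detected afterwards. Conventional and Reset cells were both grown on mouse embryonic fibroblast feeders, and transgene history and medium cannot be told apart in this comparison. The study names the libraries of a group biological replicates. Whether they came from separate resettings or from cultures of a single resetting is not given. P-values rest on the spread between these libraries of 1 line, with each feature's dispersion drawn toward that of all features fitted with it. Conventional libraries held 92023996 to 98004161 CpG calls (3.28 to 3.49 per CpG) and Reset libraries 70329213 to 80199615 (2.51 to 2.86 per CpG). A level is the percent of methylated calls summed over the CpGs of a feature in a bulk library, so partly methylated molecules and a mixture of methylated and unmethylated cells give the same value.

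Sequences from the CGIs with the largest rises are shown first. CGIs here are stretches of at least 500 bp predicted from the GRCh37 sequence, and those within 5 kb of a member transcript were assigned to it. The 3 stretches below are the 300 bases with most CpGs outside annotated UTRs in the CGI with the largest rise of each of 3 genes. They are written along the gene's strand in lower case with each CG dinucleotide in capitals.
FOXL1, chr16:86612734-86613033, plus strand: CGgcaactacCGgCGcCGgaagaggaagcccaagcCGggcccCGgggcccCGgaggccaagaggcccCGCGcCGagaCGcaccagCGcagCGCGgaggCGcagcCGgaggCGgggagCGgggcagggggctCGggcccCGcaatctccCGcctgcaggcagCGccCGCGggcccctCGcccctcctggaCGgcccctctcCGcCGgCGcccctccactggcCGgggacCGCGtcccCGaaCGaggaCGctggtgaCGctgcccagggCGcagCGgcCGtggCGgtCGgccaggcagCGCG
FOXF2, chr6:1393663-1393962, plus strand: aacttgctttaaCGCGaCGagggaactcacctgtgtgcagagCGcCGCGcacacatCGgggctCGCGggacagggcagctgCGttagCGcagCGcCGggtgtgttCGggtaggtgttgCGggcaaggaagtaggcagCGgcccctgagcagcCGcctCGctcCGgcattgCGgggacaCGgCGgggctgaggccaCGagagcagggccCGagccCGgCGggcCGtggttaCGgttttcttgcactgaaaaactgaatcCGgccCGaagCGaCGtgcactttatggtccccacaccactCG
FOXI2, chr10:129536877-129537176, plus strand: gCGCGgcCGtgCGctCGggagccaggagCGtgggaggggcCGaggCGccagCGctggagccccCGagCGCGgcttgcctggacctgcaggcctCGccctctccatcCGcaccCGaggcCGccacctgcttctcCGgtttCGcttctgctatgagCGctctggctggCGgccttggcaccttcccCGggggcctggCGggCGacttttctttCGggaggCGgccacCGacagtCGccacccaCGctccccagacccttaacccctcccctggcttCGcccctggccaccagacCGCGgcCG

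The FOXL1 stretch lies in the coding part of its single exon, 579 to 878 bp past the start, and has 43 CpGs at a GC content of 80.7%. Its level was 0%, 5.26% and 2.90% in the 3 Conventional libraries and 56.3%, 85.7% and 69.9% in the 3 Reset libraries (67 to 138 calls per library). The FOXI2 stretch is also coding sequence and has 32 CpGs. Its level was 3.70%, 4.44% and 2.22% in Conventional and 80.8%, 46.6% and 76.2% in Reset. The FOXF2 stretch, with 33 CpGs, is intronic. It was covered thinly, by 13 to 85 calls per library, and its Reset libraries were far apart at 100.0%, 6.25% and 41.2%, against 2.35%, 0% and 2.33% in Conventional. These stretches describe where the CpGs lie, and the tests were made on whole features.

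For contrast, a stretch before the start of FOXA2 and a stretch of its most raised CGI, past the end of the gene, are shown. This pair was chosen after the values were seen, as the windows with most calls in the least covered library.
FOXA2 before the start, chr20:22565531-22565830, minus strand: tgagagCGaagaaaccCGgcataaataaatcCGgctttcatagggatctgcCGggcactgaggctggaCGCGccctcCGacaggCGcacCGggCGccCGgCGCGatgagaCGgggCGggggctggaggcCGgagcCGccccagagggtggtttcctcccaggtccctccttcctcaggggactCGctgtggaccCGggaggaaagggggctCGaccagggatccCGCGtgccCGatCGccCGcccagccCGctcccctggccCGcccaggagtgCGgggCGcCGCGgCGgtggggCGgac
FOXA2 past the end, chr20:22559800-22560099, minus strand: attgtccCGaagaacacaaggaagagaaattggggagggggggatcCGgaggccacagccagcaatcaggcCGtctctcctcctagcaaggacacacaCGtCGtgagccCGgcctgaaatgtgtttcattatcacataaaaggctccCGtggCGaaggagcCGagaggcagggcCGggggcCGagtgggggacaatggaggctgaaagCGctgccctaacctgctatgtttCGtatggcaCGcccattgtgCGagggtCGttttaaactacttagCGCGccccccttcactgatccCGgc

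Before the start, with 33 CpGs, 5 of the 6 libraries had no methylated call and Reset replicate 2 stood at 1.32%. With 36 calls in the least covered library, a count of 0 allows a level of up to 8.33% (3 calls, counting error only). Past the end, with 19 CpGs, the level was 0%, 2.78% and 5.77% in Conventional and 40.9%, 18.2% and 45.5% in Reset.

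At promoters, which here begin 1000 bp before and end 500 bp after the start of the canonical transcript, 10 of the 37 members were higher in Reset, 10 were lower and 17 did not pass. All 10 that rose were developmental. Without Reset replicate 2, 6 rose. Over all 19300 promoters tested, 3.98% rose and 67.4% fell, against 27.0% and 27.0% of members. The median change was -0.12 points over members and -9.59 points over all promoters. Starting levels differed, with a median in Conventional of 2.73% over members and 15.4% over all promoters. Changes were tested with a quasi-binomial model over all promoters, with dispersions moderated by limma and p adjusted by the Benjamini-Hochberg method. The comparison of developmental with broadly expressed members is a count with no test.

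**Figure D1:**
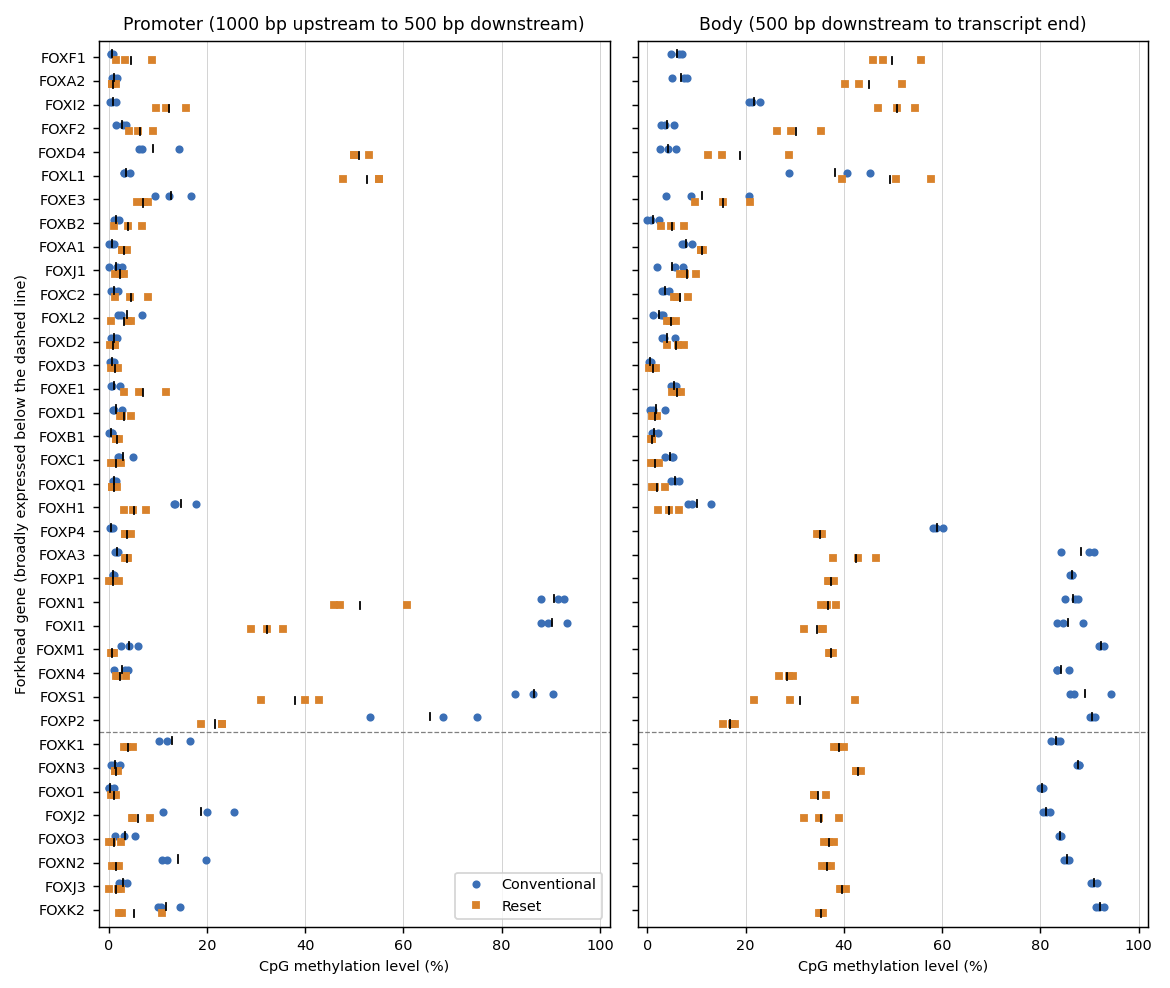
CpG methylation level (%) of each forkhead gene's promoter (left) and body (right) in the 3 Conventional libraries (blue circles) and the 3 Reset libraries (orange squares), with group means as black bars. Bodies of the broadly expressed genes, below the dashed line, moved from 80.2 to 92.0% in Conventional to 34.7 to 42.8% in Reset, whereas those of FOXF1, FOXA2, FOXI2 and FOXF2 moved upward.

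FOXL1, a mesenchymal factor of the gut wall, had the largest rise at a member promoter taken at the canonical start. Its level was 3.11%, 3.14% and 4.43% in the Conventional libraries and 55.1%, 55.05% and 47.7% in the Reset libraries, a change of 49.0 points (SE 2.50, adjusted p = 2.81e-08). The groups were far apart, with every Reset library near 50%. With promoters taken at the most upstream coding start, the FOXL1 change was 5.39 points (adjusted p = 0.00689), under the FOXD4 change below.

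FOXI2, a member of the family that patterns the ear and its placode, rose from 1.44%, 0.36% and 0.73% to 9.71%, 15.6% and 11.6%, by 11.5 points (SE 1.78, adjusted p = 7.28e-06). The groups did not overlap. FOXD4 rose from 14.3%, 6.76% and 6.19% to 52.9%, 50% and 50%, by 41.9 points (adjusted p = 9.80e-06), but on as few as 30 calls. FOXD4 has near-identical FOXD4-like copies elsewhere in the genome, between which short reads can be misplaced, and its value is therefore uncertain.

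The other 7 rises were under 10 points. They were FOXE1, a thyroid factor (5.77 points), FOXF1 (3.92), FOXF2 (3.65), FOXC2, a factor of lymphatic vessels (3.37), FOXP4 (3.21), FOXA1 (2.45) and FOXB2 (2.37). The libraries of the groups overlapped for FOXB2 and FOXC2. Single libraries weighed on these small values. Without Reset replicate 1 the changes were 3.44 points for FOXE1, 1.80 for FOXF1 and 0.97 for FOXB2, the last not called. Without Reset replicate 2 they were 1.61 for FOXC2 and 2.27 for FOXF2, neither called, and without Reset replicate 3 FOXB2 stood at 3.76. The bounds of the promoter weighed on them too. From 2000 bp upstream to 1000 bp downstream, the changes were 11.1 points for FOXF1, 8.82 for FOXC2, 8.64 for FOXF2 and 4.18 for FOXB2, whereas FOXA1 (1.98, adjusted p = 0.0735) and FOXP4 (-0.018, adjusted p = 0.986) were not called, and at 500 bp on either side FOXF1 stood at 6.48. Calls for FOXA1, FOXB2, FOXC2, FOXF2 and FOXP4 were lost (adjusted p = 0.0949 to 0.86 over these 5) when the promoter was narrowed to 500 bp on either side of the start.

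The FOXA genes encode pioneer factors of the endoderm and liver. The FOXA1 promoter stood at 1.10%, 0.64% and 0% in Conventional and 2.72%, 3.69% and 2.69% in Reset (adjusted p = 0.0184), where 0% in at least 157 calls allows up to 1.91%. The FOXA2 promoter stood at 1.14%, 0.65% and 1.68% against 0.70%, 0.61% and 1.47% (adjusted p = 0.819). The FOXA3 promoter stood at 1.32%, 1.61% and 1.92% against 3.35%, 3.92% and 3.65%, which just missed the threshold (adjusted p = 0.0503).

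All 3 FOXA promoters were thus at or under 3.92% in every library. FOXD3, a factor of neural crest and of pluripotent cells, stood at 0.66%, 1.01% and 0.32% in Conventional and 0.47%, 1.94% and 1.19% in Reset (adjusted p = 0.311). Its groups overlapped near 1%. With the promoter from 2000 bp upstream to 1000 bp downstream it was called higher (1.44 points, adjusted p = 0.0362).

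The 10 promoters that fell were of 2 kinds. The 4 member promoters without a CGI were highly methylated in Conventional and fell by 39.5 to 58.1 points. Of all 5695 promoters without a CGI, 1.69% rose and 91.0% fell. The median change was -46.2 points over these 4 members and -48.1 points over all such promoters, so these falls were close to the background. FOXI1, a regulator of acid-secreting cells, went from 89.4%, 88.1% and 93.2% to 35.5%, 29.0% and 32.1% (-58.1 points, SE 2.42, adjusted p = 6.86e-08). FOXS1 went from 82.8%, 86.4% and 90.4% to 31.0%, 42.9% and 40.0% (adjusted p = 4.94e-07).

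FOXN1, the thymic epithelium factor, went from 88.1%, 91.4% and 92.8% to 60.8%, 47.1% and 45.8% (adjusted p = 3.75e-06). FOXP2, known for its part in speech circuits, went from 53.2%, 68.1% and 75% to 23.1%, 23.1% and 18.8% (adjusted p = 1.20e-04). Groups of these genes did not overlap. FOXP2 has several starts, and at its most upstream coding start the change was 0.76 points (adjusted p = 0.243).

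The other 6 that fell had a CGI at the promoter and started lower. FOXJ2 went from 11.0%, 20.1% and 25.5% to 8.47%, 4.91% and 4.69% (-12.8 points, adjusted p = 9.08e-04), and FOXN2 from 11.9%, 19.9% and 10.8% to 2.16%, 0.60% and 1.48% (-12.8 points, adjusted p = 2.26e-05). Changes of FOXK1 (-8.94 points), FOXK2 (-6.44) and FOXM1 (-3.51) were smaller. The libraries of FOXK2 overlapped, and its call was lost in 7 of the alternatives, among them those without Conventional replicate 1, Conventional replicate 3, Reset replicate 1 or Reset replicate 3 (-4.88 to -6.95 points) and the replicate block (adjusted p = 0.152). FOXK1 lies where Reset libraries had 1.68 times the relative coverage of Conventional, against 0.888 to 1.20 times near the other members. Its part in the result was not tested.

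FOXH1, the partner of SMAD proteins in NODAL signalling, went from 13.4%, 13.3% and 17.7% to 7.69%, 3.08% and 5.00% (adjusted p = 0.00381). For FOXH1 and the FOXJ2, FOXN2, FOXK1 and FOXK2 promoters the larger difference lay in the window farther from the gene. From 1000 to 500 bp upstream, the mean level went from 81.2% ± 4.19 to 34.3% ± 0.98 (SD, n = 3) for FOXJ2, from 61.3% ± 15.5 to 4.31% ± 3.73 for FOXN2, from 79.1% ± 2.68 to 50.3% ± 5.06 for FOXK1, from 48.9% ± 7.96 to 11.4% ± 3.43 for FOXK2 and from 57.3% ± 9.53 to 14.8% ± 16.1 for FOXH1. From 500 bp upstream to 500 bp downstream, group means of these 5 genes were 0.47 to 5.51%. With that narrower promoter, FOXH1, FOXJ2, FOXK2 and FOXN2 did not pass (adjusted p = 0.281 to 0.952). FOXK1 (-4.13 points, adjusted p = 0.0285) and FOXM1 (-1.04 points, adjusted p = 0.0456) were still called lower, by less than with the main bounds. From 2000 bp upstream to 1000 bp downstream the FOXM1 change was -10.1 points.

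Promoters that did not pass, besides FOXA2, FOXA3 and FOXD3, were those of FOXB1, FOXC1, FOXD1, FOXD2, FOXE3, FOXJ1, FOXJ3, FOXL2, FOXN3, FOXN4, FOXO1, FOXO3, FOXP1 and FOXQ1. Of these FOXE3, a lens factor, had the largest difference, with 9.42%, 16.7% and 12.3% in Conventional and 8.06%, 7.14% and 5.84% in Reset (adjusted p = 0.0738). From 2000 bp upstream to 1000 bp downstream, FOXB1 was called higher (3.45 points, adjusted p = 4.16e-04), and FOXJ3, FOXN3, FOXN4, FOXO1 and FOXP1 were called lower, by -4.84 to -10.25 points, where 2.60% of all promoters were higher and 89.4% lower.

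Among the 33 member promoters that overlap a CGI, 10 rose and 6 fell. Among all 13605 such promoters, 4.94% rose and 57.6% fell, and the median change was 0.25 points over members and -4.99 points over all of them.

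In windows of 500 bp around the start, the classes had different surroundings. For the broadly expressed genes, the mean level in Conventional was 2.16% just upstream of the start, 36.1% in the window from 1000 to 500 bp upstream and 71.4% in the window from 1500 to 1000 bp upstream. In Reset these windows stood at 1.47%, 13.9% and 25.2%. For the developmental genes, Conventional stood at 9.13%, 16.8% and 16.4% in the same windows, and Reset at 9.14%, 12.3% and 15.9%. These are means over 24 to 27 members, which pool members whose promoters rose with members whose promoters fell. Median levels of whole developmental promoters were 1.56 to 2.61% in Conventional libraries and 2.69 to 4.28% in Reset libraries. Means were 13.2 to 14.4% and 10.2 to 12.1%.

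The dip around the start was thus wide for the developmental genes and narrow for the broadly expressed ones. At the outermost upstream window, 10 kb away, the developmental genes stood at 72.3% in Conventional and 29.3% in Reset, and the broadly expressed genes at 90.8% and 40.2%.

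**Figure D2:**
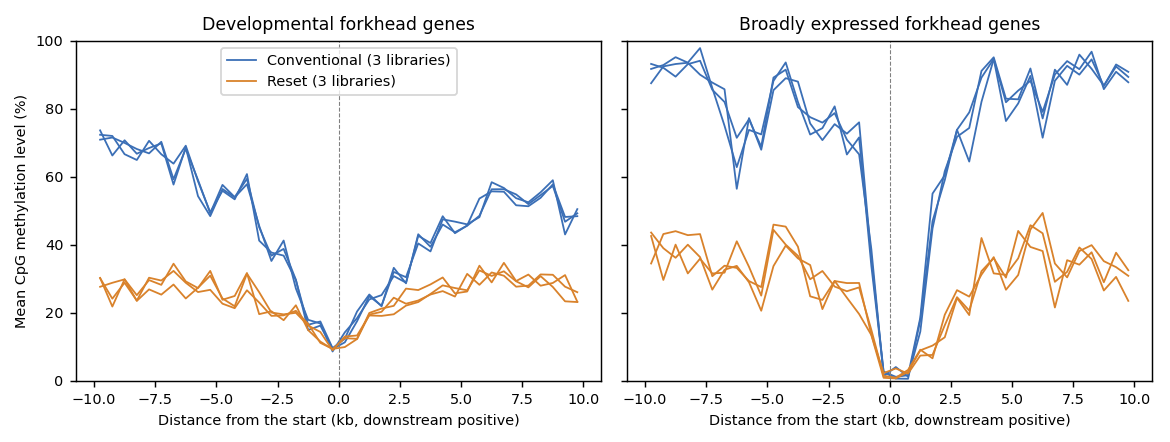
Mean CpG methylation level (%) in bins of 500 bp up to 10 kb on either side of the start, over developmental (left) and broadly expressed (right) forkhead genes, with 1 line per library. Conventional lines (blue) lie above Reset lines (orange) away from the start and are close to them in the bin just upstream of it, at 9.13% against 9.14% for developmental and 2.16% against 1.47% for broadly expressed genes. Developmental means pool members whose promoters rose with members whose promoters fell.

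Gene bodies, taken from 500 bp past the start to the end of the transcript, separated the classes further. All 8 broadly expressed members fell, by 44.3 to 56.7 points. Of the 29 developmental members 11 rose, 12 fell and 6 did not pass, and without Reset replicate 2, 7 rose. Over all 19153 bodies, 1.15% rose and 97.8% fell, with a median change of -51.2 points, against 0.51 points over developmental and -46.4 points over broadly expressed members.

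FOXF1, a factor of lung and gut mesenchyme, had the largest rise of a member body. It went from 4.80%, 7.06% and 6.50% to 45.9%, 55.6% and 48.0% (43.7 points, SE 3.03, adjusted p = 3.19e-15). FOXA2, a factor of endoderm and floor plate, went from 4.98%, 7.51% and 7.99% to 43.1%, 51.7% and 40.3% (38.2 points, SE 3.56, adjusted p = 3.41e-13). Both genes kept promoter means under 5% in Reset.

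FOXI2 bodies went from 23%, 20.7% and 21.3% to 54.4%, 47.0% and 50.8% (adjusted p = 9.52e-09). FOXF2, which patterns palate and gut mesenchyme, went from 5.51%, 3.64% and 2.79% to 35.4%, 26.4% and 29.2% (adjusted p = 6.71e-13). Neither gene had overlapping groups.

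FOXD4 rose by 14.6 points (9.61 without Reset replicate 3), with the uncertainty given above, and FOXL1 by 11.1 points with overlapping libraries (6.31, 10.4 and 6.88 points, not called, without Conventional replicate 3, Reset replicate 2 or Reset replicate 3). The 5 other rises were FOXB2 (3.92 points), FOXA1 (3.23), FOXJ1, a factor of motile cilia (3.17), FOXC2 (3.02) and FOXL2, an ovarian factor (2.43). The call of FOXJ1 was lost in 7 of the alternatives and rested on overlapping libraries. Without Conventional replicate 2, FOXJ1 stood at 1.71 points. Without CpGs inside CGIs, FOXA1 and FOXC2 turned to -2.88 and -6.51 points and FOXJ1 stood at 3.02, none of them called. FOXL2 stood at 17.3 points there and was called. Calls were also lost for FOXL2 without Conventional replicate 1 (1.87 points), for FOXA1 without Conventional replicate 2 or 3 or Reset replicate 2 (3.00, 2.85 and 3.10), for FOXB2 without Conventional replicate 1 or 2 or Reset replicate 1 (2.67 to 3.76), and for FOXC2 without Conventional replicate 1 or 3 or Reset replicate 2 (2.88, 2.73 and 2.17).

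FOXP2 fell most among members, from 90.1%, 90.6% and 91.1% to 15.4%, 17.9% and 17.2% (-73.8 points, SE 0.79, adjusted p = 5.80e-30). Its Reset level was less than the lowest level of any broadly expressed member body. The other developmental members that fell by more than 10 points were FOXS1, FOXN4, a retinal factor, FOXM1, FOXI1, FOXN1, FOXP1, FOXA3 and FOXP4, by 23.9 to 58.1 points. FOXH1 (-5.79, and -4.70 and not called without Reset replicate 3), FOXQ1 (-3.60) and FOXC1 (-3.13) also fell. Without CpGs inside CGIs their changes were -13.9, -22.3 and -5.36 points. FOXB1, FOXD1, FOXD2, FOXD3, FOXE1 and FOXE3 did not pass.

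In the broadly expressed class, FOXK2, a partner of chromatin complexes, fell by 56.7 points and FOXJ3 by 51.2 points. FOXN2 and FOXN3, of the checkpoint-suppressor type, fell by 48.8 and 44.9 points. FOXO1 and FOXO3, the targets of AKT in insulin signalling, fell by 45.5 and 46.9 points. FOXJ2 fell by 45.9 points and FOXK1 by 44.3 points. Their adjusted p ranged from 7.70e-30 for FOXN3 to 1.07e-17 for FOXJ2.

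The 17 member bodies at or over 50% in Conventional comprised the 8 broadly expressed and 9 developmental ones, and all 17 fell, as did 18063 of 18069 such bodies in the genome (100.0% when rounded). The 20 bodies under 50% were all developmental. Of these, 11 rose and 3 fell, against 20.3% and 61.1% over the 1084 bodies under 50% in the genome, with medians of 3.10 and -11.7 points. Class and starting level cannot be told apart for the broadly expressed genes, none of which started under 50%.

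The classes also differed in length. The median transcript was 3838 bp for developmental members, 12 of which have a single exon, and 100062 bp for broadly expressed members. A short body can lie largely within CGIs, and bodies were therefore also read with CpGs inside and outside CGIs apart. Of 20 developmental members with both parts, 15 had a positive change inside CGIs (median 1.74 points) and 12 a negative one outside (median -2.35). Of 7 broadly expressed members, 3 were positive inside (median 0 points) and 7 negative outside (median -49.1). These are signs without a test, and no share over all bodies is given for them. P-values of the fit outside CGIs are not on the scale of those over whole bodies. FOXP2, with no calls inside CGIs, had the same levels in both fits, with adjusted p of 5.80e-30 over the body and 1.71e-81 outside CGIs.

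FOXL1 had opposite changes in the 2 parts of its body. Inside CGIs its level was 6.80%, 7.87% and 7.36% in Conventional and 50.5%, 67.5% and 69.7% in Reset. Outside CGIs it was 75.9%, 79.9% and 71.3% against 27.7%, 25.4% and 35.0%, a fall of 46.4 points (adjusted p = 1.31e-18). The modest rise over the whole body was the sum of these.

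FOXF1 and FOXF2 rose in both parts. Outside CGIs, FOXF1 went from 6.73% ± 1.41 to 48.4% ± 2.77 (SD, n = 3, adjusted p = 8.54e-27) and FOXF2 from 10.3% ± 3.69 to 38.9% ± 2.02 (adjusted p = 1.17e-11). FOXA2 and FOXI2 rose inside CGIs, from 3.25% ± 1.5 to 45.7% ± 4.27 and from 8.10% ± 1.92 to 51.7% ± 8.29. Outside CGIs their values were 34.3% ± 1.64 against 29.3% ± 27.5 (adjusted p = 0.344, from as few as 13 calls) and 47.1% ± 8.58 against 45.6% ± 12.3 (adjusted p = 0.844).

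**Figure D3:**
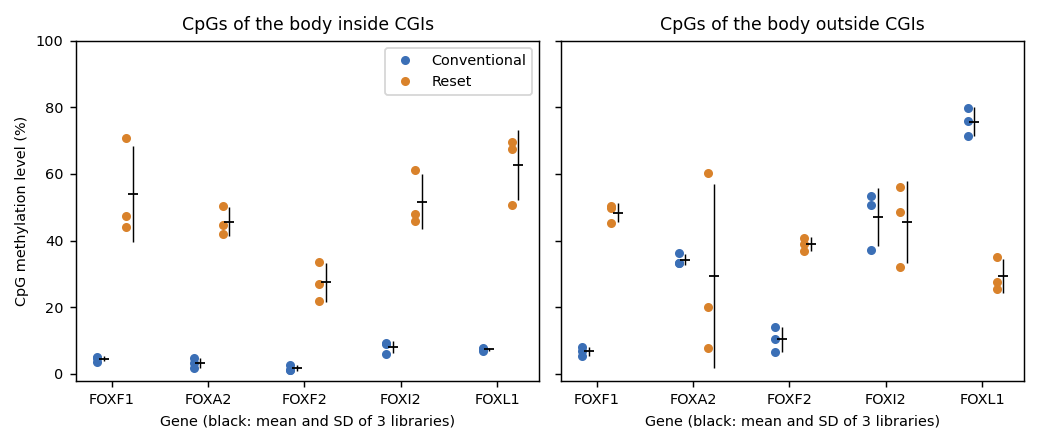
CpG methylation level (%) of 5 forkhead gene bodies in CpGs inside CGIs (left) and outside CGIs (right), with 1 point per library and the mean and SD of 3 libraries in black. Inside CGIs Reset lies above Conventional in all 5 genes, and outside them FOXL1 lies lower in Reset (29.4% against 75.7%). These 5 genes are shown because their whole bodies rose, so a rise inside CGIs in all 5 is no separate result.

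Without CpGs inside CGIs, 4 developmental bodies rose in place of 11, where 0.867% of all bodies rose and 98.4% fell. They were FOXF1, FOXF2, FOXL2 (17.3 points, against 2.43 over the whole body) and FOXD2, of which FOXD2, with 11.8 points (adjusted p = 0.0227), had not passed over the whole body. FOXB2 and FOXD4 had too few such calls.

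CGIs were then examined one by one. Of 97 CGIs near members, 96 had at least 10 calls in every library. Of these 41 rose, 13 fell and 42 did not pass. All 41 belonged to developmental members, 18 of which had at least 1 raised CGI. Over all 27119 CGIs tested 10.1% rose and 41.1% fell, and the medians of change were 3.64 points over the 78 developmental CGIs, -1.34 points over the 18 broadly expressed ones and -1.20 points over all.

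CGIs that started low can be compared among themselves. Of the 74 developmental CGIs under 20% in Conventional, 41 rose and 2 fell, against 15.8% and 9.29% of 16995 such CGIs in the genome. Their median change was 4.21 points, against 0.01 points in the genome.

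The 6 largest rises were in CGIs assigned to FOXL1, FOXF2 (2 CGIs), FOXI2, FOXA2 and FOXC1. The FOXL1 CGI (chr16:86612087-86613854) covers the start and 1700 bp of the single exon of 4930 bp. It went from 5.39%, 5.31% and 6.33% to 52.5%, 67.6% and 67.7% (57.0 points, SE 5.05, adjusted p = 4.14e-06). Every Reset library was above 50%.

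In FOXF2 an intronic CGI (chr6:1392933-1394508) went from 4.35%, 1.54% and 1.04% to 58.5%, 49.7% and 52.2% (51.2 points, adjusted p = 5.17e-06). A CGI upstream of the gene (chr6:1383569-1385277) went from 1.24%, 1.62% and 0.37% to 42.0%, 26.2% and 46.2% (37.1 points, adjusted p = 2.86e-05). The CGI over the FOXF2 start lies between these and rose by 6.88 points.

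In FOXI2 the CGI with coding sequence, UTR and intron (chr10:129536690-129537368) went from 9.59%, 13.5% and 14.3% to 75.2%, 48.8% and 60% (48.9 points, adjusted p = 2.22e-04). Past the end of FOXA2 (chr20:22559530-22560133) the level went from 0%, 1.18% and 2.86% to 37.6%, 24.5% and 46.6% (34.9 points, adjusted p = 1.55e-04). Groups did not overlap in either.

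Past the end of FOXC1, a factor of eye and skeleton (chr6:1618964-1619657), the level went from 4.41%, 5.50% and 5.63% to 32.7%, 39.6% and 42.0% (32.9 points, adjusted p = 4.84e-05). The body of FOXC1 fell by 3.13 points in the same libraries. The raised CGI lies outside the FOXC1 transcript and was assigned to it by distance. A low body and a raised interval thus occurred near the same gene.

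Rises were found both at and away from the start. Of the 23 developmental CGIs that contain the member's start 11 rose and none fell, with a median change of 1.46 points, where 7.16% of all CGIs with a start rose and 16.5% fell. Of the 55 other developmental CGIs 30 rose and 6 fell, with a median change of 4.95 points, where 12.4% of all CGIs without a start rose and 60.2% fell. The 16 CGIs past the end had the highest median change, 13.1 points.

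**Figure D4:**
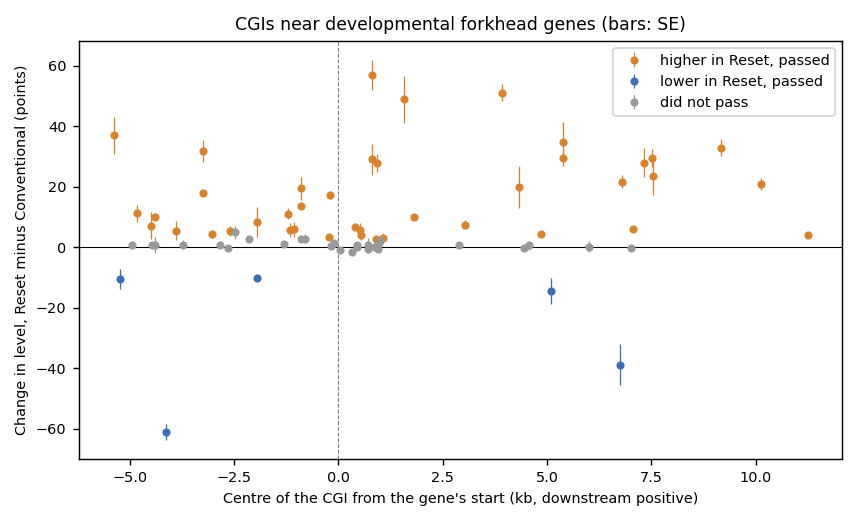
Change in CGI methylation (Reset minus Conventional, points, bars are SE over 3 and 3 libraries) against the distance (kb) of the CGI's centre from the start of its developmental forkhead gene, for 76 of 78 CGIs. Raised CGIs (orange) lie on either side of the start, and most CGIs that did not pass (grey) lie near 0 points.

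FOXA1 had the most raised CGIs, 7 of 7, by 3.26 to 31.9 points, although its promoter mean was 3.03% in Reset. Calls of 2 of these were lost without at least 1 library, and one upstream changed by 3.80 points without Reset replicate 2 and 11.5 without Reset replicate 3, against 7.21 with all. The largest rise of the 7 lies upstream of the start and went from 2.27%, 0% and 2.20% to 40.0%, 32.3% and 27.9%. FOXA2 had 4 of 5 raised. The CGI over its start extends through the gene, and it rose by 27.8 points. FOXA3 had none of 2. All these CGIs were under 20% in Conventional, and of all such CGIs in the genome 15.8% rose and 9.29% fell. Differences between genes in these counts were not tested.

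Genes with no call at the promoter or over the body were not all without change. FOXD3 had a CGI past its end that went from 1.98%, 4.92% and 7.28% to 35.7%, 33.9% and 15.7% (23.7 points, adjusted p = 0.00107). FOXD3 also had a CGI upstream that fell from 18.0%, 7.05% and 9.97% to 0.43%, 1.34% and 2.27% (adjusted p = 0.0026). FOXD1, a kidney stroma factor, had 1 raised CGI of 3 (20.1 points).

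FOXB1 had 1 of 2 (5.45 points, with overlapping libraries, and 2.84 without Reset replicate 2) and FOXE3 1 of 1 (5.89 points, and 3.90 without Reset replicate 1). The FOXE3 call was lost without Conventional replicate 2 or 3 (adjusted p = 0.0504 and 0.0558). None of the 5 CGIs of FOXD2 passed. Of all CGIs under 20% in Conventional, 15.8% rose and 9.29% fell, so few or no raised CGIs do not set a gene apart. FOXL2, whose body was called higher by 2.43 points, had a CGI past its end that rose by 28.0 points. These additional genes and CGIs were named after their values were seen.

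The CGIs that fell had been methylated in Conventional, with the exceptions of a CGI of FOXD3 and one of FOXH1 (each by about 10 points, -10.3 and -10.2). The largest fall was upstream of FOXS1 (chr20:30437246-30437859), from 79.4%, 76.6% and 70.7% to 15.6%, 13.4% and 14.96% (-60.9 points, adjusted p = 4.24e-06). The next were in introns of FOXK2. One (chr17:80551644-80552381) went from 92.3%, 96.9% and 94.9% to 32.8%, 42.0% and 50%, and the other (chr17:80545272-80545938) from 96.2%, 94.5% and 96.8% to 41.5%, 52.7% and 40.3%.

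The 8 CGIs over the starts of broadly expressed genes did not pass in either direction, with a median change of -0.05 points. Of all CGIs with a start, 7.16% rose and 16.5% fell, with a median change of -0.25 points. Of the 8 CGIs inside transcripts of broadly expressed genes 7 fell, all in FOXK1 and FOXK2, where 60.2% of all CGIs without a start fell.

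Members in gene clusters are neighbours on the chromosome and are not independent. FOXF1, FOXC2 and FOXL1 lie within 68022 bp on chromosome 16, and FOXQ1, FOXF2 and FOXC1 within 297817 bp on chromosome 6. Of the 34 windows of 1 kb under 20% in Conventional around the chromosome 16 cluster, 21 (61.8%) were at or over 20% in Reset, and on chromosome 6 it was 18 of 42 (42.9%). Of all such windows of the genome, 13.4% of 32750 were, a difference that was not tested. All 62 windows at or over 50% around the first cluster and 232 of 234 around the second were lower in Reset, as were 99.99% of 1996007 windows of the genome. Body means in Reset were 6.56% for FOXC2, between FOXF1 and FOXL1, and 49.8% for FOXF1. The FOXC2 promoter had a mean of 4.53% in Reset. A CGI upstream of the FOXC2 start went from 1.94%, 1.59% and 1.03% to 25.7%, 13.6% and 23.6% (19.5 points, adjusted p = 3.41e-04).

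**Figure D5:**
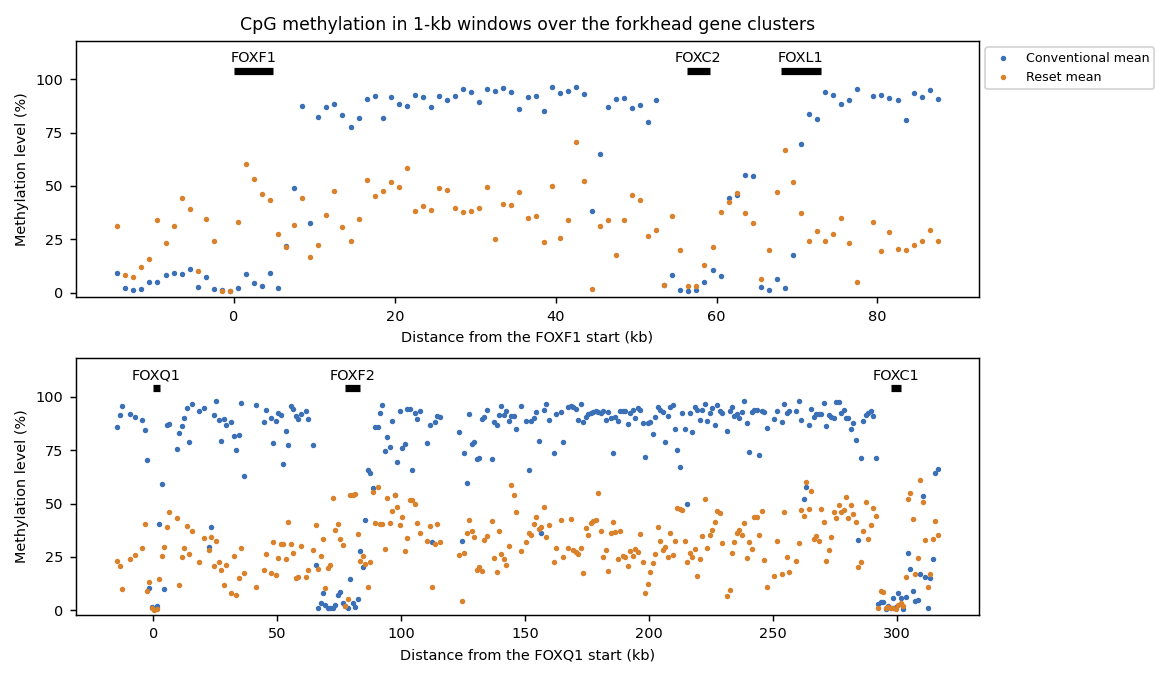
Mean CpG methylation (%) in windows of 1 kb across the FOXF1, FOXC2 and FOXL1 cluster (top, distance in kb from the FOXF1 start) and the FOXQ1, FOXF2 and FOXC1 cluster (bottom, distance in kb from the FOXQ1 start), with transcripts as black bars. Reset (orange) lies under Conventional (blue) in 62 of 62 (top) and 232 of 234 (bottom) windows over 50% in Conventional, and above it in many low windows at and between the genes, those around FOXF1 and FOXF2, beside FOXC2 and past FOXC1 among them.

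Long noncoding RNA (lncRNA) genes that start within 5 kb of a member start were read at their own promoters. Of 19, 6 rose, 3 fell and 10 did not pass, where 3.15% of 17636 lncRNA promoters rose and 86.2% fell. These shares compare unlike starting levels. The median level in Conventional was 1.88% over the 19 and 87.4% over all lncRNA promoters, which leaves the 19 little room to fall. FOXF2-DT, divergent from FOXF2, went from 3.16%, 2.05% and 0.62% to 63.4%, 34.8% and 45.8% (46.0 points, SE 8.35, adjusted p = 2.12e-10). Its promoter overlaps the raised CGI upstream of FOXF2. The windows of 8 of the 19 share bases with the promoter of the member beside them, and their calls are not separate from the member's. ENSG00000230773, which fell, shares 98.4% of its window with FOXN2, and PTCSC2, which rose, 76.4% with FOXE1. Of the 11 that share none with that promoter, 5 rose, 1 fell and 5 did not pass. Such windows can still share bases with other member features. The FOXC2-AS1 window lies inside the FOXC2 body, and that of LINC01391 overlaps the FOXL2 body. Both rose, as did these bodies. Libraries of the groups overlapped for FOXC2-AS1 and for LINC01385, which went from 1.81%, 2.36% and 3.17% to 12.6%, 4.74% and 1.58%.

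LINC01391 beside FOXL2 rose by 16.5 points (adjusted p = 4.48e-08) and FOXD2-AS1 by 8.46 points (adjusted p = 1.17e-04). The promoter of FENDRR, the divergent partner of FOXF1, stood at 0.60%, 0.39% and 1.82% against 0.30%, 1.39% and 0% (adjusted p = 0.552). The largest fall was of ENSG00000227527 beside FOXJ3 (-54.6 points), followed by ENSG00000230773 beside FOXN2 (-11.2) and FOXP1-DT (-7.08).

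Promoters of 21 partners and regulators of forkhead proteins (kinases of the AKT pathway, SMAD proteins, deacetylases and others) were read from the same fit. None rose and 7 (33.3%) fell, against 3.98% and 67.4% of all promoters, and the median change was -0.60 points, against -9.59. Starting levels were unlike here too, with a median in Conventional of 15.4% over all promoters and 1.61% over these 21. The largest falls among the 21 were of PLK1, a mitotic kinase that acts on FOXM1 (-13.5 points, adjusted p = 1.33e-05), AKT2 (-12.2, adjusted p = 2.35e-05) and the deacetylase SIRT1 (-9.80, adjusted p = 0.00253).

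Other families of developmental factors were set beside the forkhead genes. Of 9 PAX promoters 5 rose and 1 fell, of 16 T-box promoters 7 rose and 4 fell, and of 5 GATA promoters 4 rose and none fell, where 10 of 37 forkhead promoters rose and 10 fell and 3.98% and 67.4% of all promoters did. The median changes were 3.54, 1.28 and 3.01 points. Median promoter levels in Conventional were 3.04%, 2.45% and 0.81%, against 15.4% over all promoters. Over bodies 2 PAX genes rose and 6 fell, 4 T-box genes rose and 10 fell, and 2 GATA genes rose and 3 fell, with median changes of -31.9, -24.6 and -27.2 points, where 1.15% of all bodies rose and 97.8% fell. Differences between families were not tested.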

How the data were processed

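Whole-genome bisulfite sequencing was analysed in 3 Conventional and 3 Reset libraries of H9. Reads had been trimmed (Trim Galore) and mapped to GRCh37 by the authors with Bismark (0.9.0 per the labels, where the methods of the study name another version). Removal of duplicate reads was not stated. The deposited counts of methylated and unmethylated calls per cytosine, counted from 0, were used without normalization, and the deposited percent matched the methylated share of these calls at every position. Printed coordinates are counted from 1.

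Both strands of a CpG were summed. Genes were the canonical transcripts of GENCODE 44 for GRCh37. A CGI was a stretch of 500 bp or more with GC of 55% or more and observed over expected CpGs above 0.65, without masking of repeats. A feature needed 10 calls in each library. Its calls were fitted by logistic regression with quasi-binomial variance, and groups were compared by an F test on the deviance, with dispersions squeezed by limma 3.58.1 (R 4.3.3) and kept at 1 or more. Benjamini-Hochberg adjustment ran over all features of a table, and the threshold was 0.05. The test was checked on simulated calls. With 3 libraries against 3 a two-sided permutation test cannot give p under 0.1, and none was used.

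Members, lists, classes and tests were chosen with earlier results of these data known. Values per library are given for members that passed at the promoter with at least 10 points and no overlap, for the FOXA genes, FOXD3 and FOXH1, and for the CGIs with the 6 largest rises and 3 largest falls. Bodies and CGIs beyond these were named after their values were seen. Alternatives were other call minimums, promoter bounds, starts, bodies, CGI definitions and distances, Fisher's exact test, limma on transformed levels, no CpGs over 30 calls, a replicate block, and each library left out.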

Additional observations from a re-analysis of the deposited data

How the results depend on the processing

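Counts of members called stayed within 1.5 times of those given above in all but the cases named here. With the promoter at 500 bp on either side of the start, 5 members (5 developmental) rose and 6 fell, 1 of them broadly expressed, where 4.40% of all promoters rose and 39.6% fell. With 2000 bp upstream to 1000 bp downstream, 7 broadly expressed promoters fell, where 89.4% of all promoters did, and FOXI2 and FOXJ2 changed by 18.1 and -30.4 points. At the most upstream coding start, 1 broadly expressed promoter rose, that of FOXN3, by 2.52 points (adjusted p = 0.0213). Of all promoters in that setting, 3.60% rose and 72.8% fell. Without CpGs inside CGIs, 4 bodies (4 developmental) rose, where 0.867% of all bodies rose and 98.4% fell. Over the whole transcript the FOXL1 and FOXD4 changes were 19.96 and 23.2 points. With CGIs from merged windows of 200 bp, 66 CGIs rose and 316 fell, where 2.32% of 244441 CGIs rose and 90.3% fell. With CGIs of at least 500 bp within 1 kb of the transcript, 22 rose and 8 fell, where 10.1% of all CGIs rose and 41.1% fell. The number of member CGIs tested is not given here for these settings, so these counts cannot be read as shares. Over the 6 fits that left out 1 library each, 6 to 10 member promoters rose (developmental 6 to 10, broadly expressed 0 to 1) and 9 to 10 fell, 7 to 10 bodies rose (all developmental) and 19 to 20 fell, and 33 to 40 CGIs rose and 11 to 13 fell. Over all features, 3.36 to 3.72% of promoters rose and 63.4 to 65.5% fell, 1.08 to 1.11% and 97.6 to 97.7% of bodies, and 8.18 to 9.23% and 38.7 to 39.6% of CGIs. The low values of rises came without Reset replicate 2 for promoters and bodies, and without Conventional replicate 3 for CGIs. The broadly expressed rise, of FOXO1, came without Conventional replicate 1.

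Of 1133 values of single members and named CGIs under an alternative, 1023 kept direction and call. The sign turned in 40, of which 30 were of changes that had not passed and were at most 4.17 points in size. Of these, the FOXN3 (-6.67) and FOXO1 (-4.84) promoters were called lower at the wider bounds. The 10 called changes that turned were those of the FOXH1 (1.46 points), FOXJ2 (0.98) and FOXK2 (2.79) promoters at 500 bp on either side, of FOXP4 at the wider promoter (-0.018), of FOXP2 at the most upstream coding start (0.76), and, without CpGs inside CGIs, of the FOXA1 (-2.88), FOXA2 (-4.93), FOXC2 (-6.51), FOXI2 (-1.47) and FOXL1 (-46.4) bodies. Promoter calls lost without 1 library were those of FOXB2 (without any 1 of 4 libraries), FOXK2 (4), FOXA1, FOXC2 and FOXF2 (2 each). The CGIs with the 6 largest rises and 3 largest falls kept their calls throughout. Of all 54 called member CGIs, 13 lost the call without at least 1 library and 8 moved by over 1.5 times.

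Replicate numbers did not pair the libraries: same-numbered libraries deviated from their group means with correlations of 0.0072, 0.011 and 0.0094 over promoters. With a replicate block, 8 member promoters rose and 9 fell, 10 bodies rose and 20 fell, and 31 CGIs rose and 11 fell, where 3.31% and 64.1% of all promoters, 1.14% and 97.8% of bodies and 6.48% and 35.0% of CGIs did. The block lost calls of FOXB2 (adjusted p = 0.0939), FOXF2 (0.0519) and FOXK2 (0.152) at promoters and of FOXJ1 (0.0501) over bodies. Between libraries of a group, 11.8 to 17.6% of promoters differed at the 5% level of a chi-square test, which takes calls as independent and sets the spread against counting noise alone. Depth, as few as 30 calls at the FOXD4 promoter, limits what small changes can show.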
